A study of Mus musculus with 9 samples.

Results

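The BCL2 family is a set of proteins that meet on the outer mitochondrial membrane and set whether it stays closed or is opened to start cell death. The members described here were 10 mouse genes named by symbol (Bax, Bak1, Bad, Bid, Bik, Bcl2l11, Bcl2, Bcl2l1, Mcl1 and Bbc3). Each probe set of the array (a group of short probes read out as 1 value) whose platform annotation gave exactly 1 of these symbols was taken. This matched 9 of the 10 genes, with 31 probe sets, out of 18193 genes with a probe set of a single symbol on the array. No listed probe set carried the symbol Bax, which is not analysed here.

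The arrays measured RNA of podocytes, the epithelial cells that wrap the capillaries of the kidney's filtering unit, from 5 diabetic and 4 normal mice, with 1 array per mouse. The 5 OVE26 mice had the genotype OVE-GFP on the FVB strain, were labelled diabetic and were 3 to 4 months old. OVE26 mice become diabetic early in life because calmodulin is overexpressed in the insulin-producing beta cells. The 4 FVB mice had the same strain and age and were labelled normal and wild type. Per the series' design text, a mouse line with green fluorescent protein in podocytes was made on FVB and crossed to OVE26, and cells were taken by their fluorescence. The sources used here give neither the promoter behind the fluorescent protein nor the way the wild-type group came to be sorted. Magnetic beads were used to collect glomeruli, which were digested to single cells before the sort. The sort is a bulk sample, in which fewer cells of a type and less RNA per cell cannot be told apart.

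Members of the family act in 3 roles. BH3-only proteins (here Bbc3, Bcl2l11, Bid, Bad and Bik) carry stress signals to the mitochondrion, the effectors Bak1 and Bax form pores in its outer membrane, and the restrainers Bcl2, Bcl2l1 and Mcl1 bind members of both other classes. Podocytes divide little after they mature, so their loss is hard to make good, and this pathway has long been studied in diabetic kidney disease for that reason.

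The arrays read transcripts, so the stretches of DNA just before the transcription start are shown for the restrainer with the most consistent difference, Bcl2, and for both BH3-only genes best known as transcriptional targets of FOXO factors, Bcl2l11 and Bbc3. All are RefSeq sequences on GRCm38.p6, written 5′ to 3′ on the gene's own strand. All but the last end at the base before the annotated start, and the last is a short stretch cut from within another window. Capitals mark matches to 4 short motifs on either strand.
Bcl2, chr1:106714291-106714540, minus strand: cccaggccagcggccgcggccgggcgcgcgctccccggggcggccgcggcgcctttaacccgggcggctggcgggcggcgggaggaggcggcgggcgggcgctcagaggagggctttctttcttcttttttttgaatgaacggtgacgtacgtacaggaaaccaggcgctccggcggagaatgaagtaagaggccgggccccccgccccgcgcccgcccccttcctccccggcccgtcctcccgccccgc
Bcl2l11, chr2:128125788-128126037, plus strand: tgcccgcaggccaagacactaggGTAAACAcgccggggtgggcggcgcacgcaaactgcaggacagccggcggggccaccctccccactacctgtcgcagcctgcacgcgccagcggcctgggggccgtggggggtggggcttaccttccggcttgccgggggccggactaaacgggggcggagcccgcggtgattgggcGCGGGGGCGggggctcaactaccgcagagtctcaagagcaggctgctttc
Bbc3, chr7:16309333-16309582, plus strand: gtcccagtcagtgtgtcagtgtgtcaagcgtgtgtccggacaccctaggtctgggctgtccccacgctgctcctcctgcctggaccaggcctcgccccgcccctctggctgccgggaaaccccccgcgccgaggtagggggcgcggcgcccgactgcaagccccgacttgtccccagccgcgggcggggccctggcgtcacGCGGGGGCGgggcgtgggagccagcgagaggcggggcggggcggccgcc
Bbc3, chr7:16310082-16310111, plus strand, from the window of another annotated start: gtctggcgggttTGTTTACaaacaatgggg

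The motifs were the FOXO motif GTAAACA, the motif GCGNGGGCG shared by EGR factors and WT1, the E-box CACGTG and the AP-1 motif TGANTCA. Windows of 300 bases (250 before the start and 50 after it) were listed for 8 of the 9 measured members, 14 windows in all. The FOXO motif stood in 2 of these 14 windows, at -227 on the plus strand of Bcl2l11 and at -167 on the minus strand of Bbc3 (in the 30-base stretch above), against 3.65% of all 32851 windows. The EGR and WT1 motif stood in 3 of the 14, at -50 in Bcl2l11 and at -49 and -141 in Bbc3, against 5.55% of all windows. An E-box was found in 1 of the 14, at -64 of another Bbc3 window, against 7.15%. AP-1 was found in 0 of the 14, against 7.81%. The Bcl2 window, with 74.8% G and C in its upstream part, held none of these 4 letter patterns. The motifs do not overlap one another in these windows, and a match is a description of the letters only.

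Across the family, 1 gene stood lower in the diabetic sorts and most others stood slightly higher, and no probe set passed the test. Bcl2 lay below every FVB array in all OVE26 arrays on 3 of its 5 probe sets, at 43.5% to 70.4% of the FVB level. Of the 26 probe sets of the other members, 25 had a positive difference (OVE26 minus FVB, in log2 intensity) and 1 a negative one, and the differences ran from -0.01 to 1.07. This count leaves out the gene whose probe sets were all negative. Over all 31 probe sets, 25 were positive and 6 negative, against 48.9% positive on the whole array. In the limma fit over all 45037 probe sets, with Benjamini-Hochberg adjustment, 0 of the 31 member probe sets reached an adjusted p under 0.05, where 122 probe sets (0.271%; 88 higher, 34 lower) did so on the whole array. With the brightest probe set of each gene alone, 0.357% of 18193 genes were past that threshold in the same fit, and 0 of the 9 members were.

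Read without adjustment, 8 of the 31 probe sets had p under 0.05 in that fit. Of these, 5 were higher in OVE26, where 6.59% of all probe sets were, and 3 were lower, where 7.14% of all were. All 3 lower ones belonged to Bcl2. The groups did not overlap for 3 member probe sets, again the Bcl2 ones and all lower, against 2.78% of all probe sets with every OVE26 array below every FVB array. On the other side, 0 member probe sets had every OVE26 array above every FVB array, against 2.67% of all. The median difference was 0.18 over the member probe sets and -0.01 over the whole array, and 48.9% of all probe sets had a positive difference. Several probe sets read the same gene, so the 31 values are not independent. Beside the values of single members, fits are given with a cell type score as a covariate (the mean centred log2 value of that type's marker genes in each array), and values among the 5 arrays in which Xist lay below the Y-linked genes (the low-Xist arrays, 2 OVE26 and 3 FVB).

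**Figure D1:**
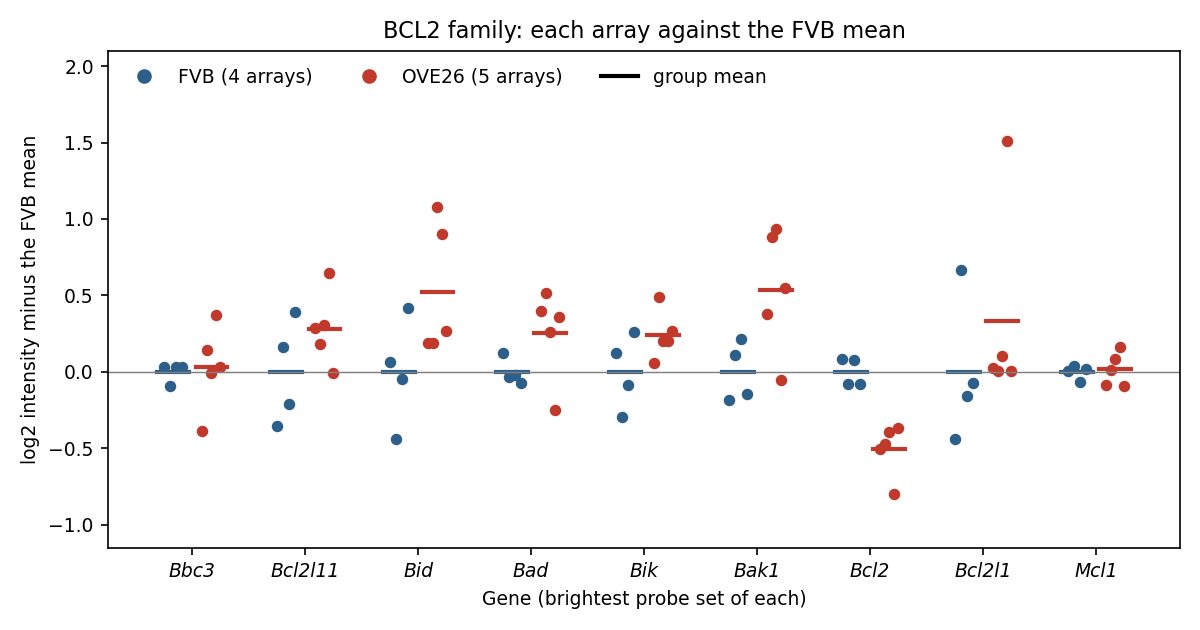
Log2 intensity of the brightest probe set of each of the 9 measured members, as the difference from that probe set's FVB mean (vertical axis), 1 point per array, with bars for group means; blue is FVB (4 arrays) and red is OVE26 (5 arrays). All red points of Bcl2 lie below all blue ones, while the groups overlap for the 8 other genes and a single red point of Bcl2l1 stands far above the rest.

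Among the BH3-only genes, Bbc3 (PUMA), a p53 target that binds all restrainers, had nearly equal means in both groups. Its 1 probe set (1423315_at) read 5.31, 5.84, 5.69, 6.07 and 5.72 in OVE26 arrays 1 to 5. In the FVB arrays 1 to 4 it read 5.73, 5.60, 5.72 and 5.72. The OVE26 arrays spread to both sides of the FVB arrays, which lay close together apart from FVB 2. The difference was 0.03 (95% interval -0.30 to 0.36, limma adjusted p = 0.956), and its sign was negative in several other fits, reaching -0.28 with the podocyte score.

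Bcl2l11 (BIM), which binds all restrainers and can also activate the effectors, was read by 5 probe sets, all with a positive difference, from 0.14 to 0.55. The brightest (1456005_a_at) read 8.56, 8.45, 8.58, 8.92 and 8.26 in OVE26 and 7.92, 8.43, 8.06 and 8.66 in FVB. The groups overlapped, since FVB 4 lay above all but 1 OVE26 array. The means were 8.55 ± 0.24 (SD, n = 5) and 8.27 ± 0.34 (SD, n = 4), a difference of 0.28 (95% interval -0.12 to 0.69, limma adjusted p = 0.545). It was 0.17 without FVB 1, 0.15 with the distal score and 0.52 among the low-Xist arrays, and the sign turned with the macrophage score (-0.018) and the podocyte score (-0.059). A second probe set, 1435448_at, read 6.75, 6.76, 6.52, 6.92 and 6.69 in OVE26 and 6.52, 6.52, 6.21 and 6.08 in FVB. Only OVE26 3 came down to the upper FVB arrays there, and the difference was 0.39 (95% interval 0.10 to 0.69, unadjusted p = 0.0141 and adjusted p = 0.231 in the limma fit). Of the 3 remaining probe sets, 1426334_a_at had the largest difference, 0.55 (limma adjusted p = 0.383), and 1435449_at and 1456006_at were dim, under the 40th percentile of mean log2 intensity (4.41).

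Bid links death receptors at the cell surface to the mitochondrion once caspase-8 has cut it. Its brightest probe set (1417045_at) read 4.99, 4.99, 5.88, 5.70 and 5.07 in OVE26 and 4.87, 4.36, 4.76 and 5.23 in FVB. OVE26 3 and 4 stood above all FVB arrays and the other 3 lay within the FVB range. The means were 5.33 ± 0.43 (SD, n = 5) and 4.80 ± 0.36 (SD, n = 4), a difference of 0.52 (95% interval -0.01 to 1.06, limma adjusted p = 0.374). It was 0.82 with the distal score and 0.015 with the podocyte score, and turned to -0.044 with the macrophage score. The probe set 1448560_at read 4.86, 5.22, 4.89, 5.41 and 5.12 in OVE26 and 4.84, 4.55, 4.71 and 4.89 in FVB. Its difference was 0.35 (95% interval 0.04 to 0.67, unadjusted p = 0.0310, adjusted p = 0.306 in the limma fit), with an overlap between the lowest OVE26 arrays and FVB 4, and it was 0.23 with an offset of 16 added before the log and 0.19 with the podocyte score. The third Bid probe set, 1447873_x_at, was below the 25th percentile of the array (3.34), a level at which signal is hard to tell from background.

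Bad, a sensitizer that survival kinases switch off by phosphorylation, had 2 probe sets. The brighter (1416582_a_at) read 9.13, 9.25, 8.99, 8.48 and 9.09 in OVE26 and 8.86, 8.70, 8.71 and 8.66 in FVB. All OVE26 arrays lay above the FVB arrays except OVE26 4, which was the lowest of all 9. The difference was 0.26 (95% interval -0.09 to 0.60, limma adjusted p = 0.516), and the second probe set, 1416583_at, gave 0.12 (limma adjusted p = 0.692). The brighter one gave 0.077 with the distal score, 0.064 among the low-Xist arrays, 0.58 with the macrophage score and 0.65 with the podocyte score.

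Bik, a BH3-only protein that also resides at the endoplasmic reticulum, had 0 of its 3 probe sets above the 40th percentile. The brightest (1449836_x_at) read 4.28, 4.71, 4.42, 4.42 and 4.48 in OVE26 and 4.34, 3.93, 4.13 and 4.48 in FVB, a difference of 0.24 (limma adjusted p = 0.491). It was 0.15 without FVB 2, 0.13 with the offset of 16, 0.11 with the distal score, 0.45 with the macrophage score and 0.032 among the low-Xist arrays. The probe set 1420362_a_at read 3.78, 5.45, 3.89, 5.52 and 3.98 in OVE26 and 3.87, 3.11, 3.15 and 3.69 in FVB. OVE26 2 and 4 stood more than 1 log2 unit above every other array while the other 3 OVE26 arrays were at the upper FVB level. Its difference of 1.07 (95% interval 0.16 to 1.98, unadjusted p = 0.0260, adjusted p = 0.286 in the limma fit) thus came with an OVE26 SD of 0.88 against 0.38 in FVB. It ran from 0.36 with the distal score, 0.58 with that offset and 0.53 with the podocyte score to 1.83 with the macrophage score. The third, 1420363_at, was below the 25th percentile and gave 0.16.

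The effector Bak1, which sits in the outer mitochondrial membrane and forms pores there when it is activated, was read by 2 probe sets. The brighter (1418991_at) read 6.40, 6.91, 6.96, 5.97 and 6.57 in OVE26 and 5.84, 6.14, 6.24 and 5.88 in FVB. All OVE26 arrays except OVE26 4 lay above all FVB arrays. The means were 6.56 ± 0.40 (SD, n = 5) and 6.03 ± 0.19 (SD, n = 4), a difference of 0.54 (95% interval 0.08 to 0.99, unadjusted p = 0.0249, adjusted p = 0.281 in the limma fit). It was 0.24 with the distal score and 0.20 among the low-Xist arrays. The second probe set, 1425716_s_at, whose suffix marks probes shared by several genes, gave 0.41 (limma adjusted p = 0.366).

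**Figure D2:**
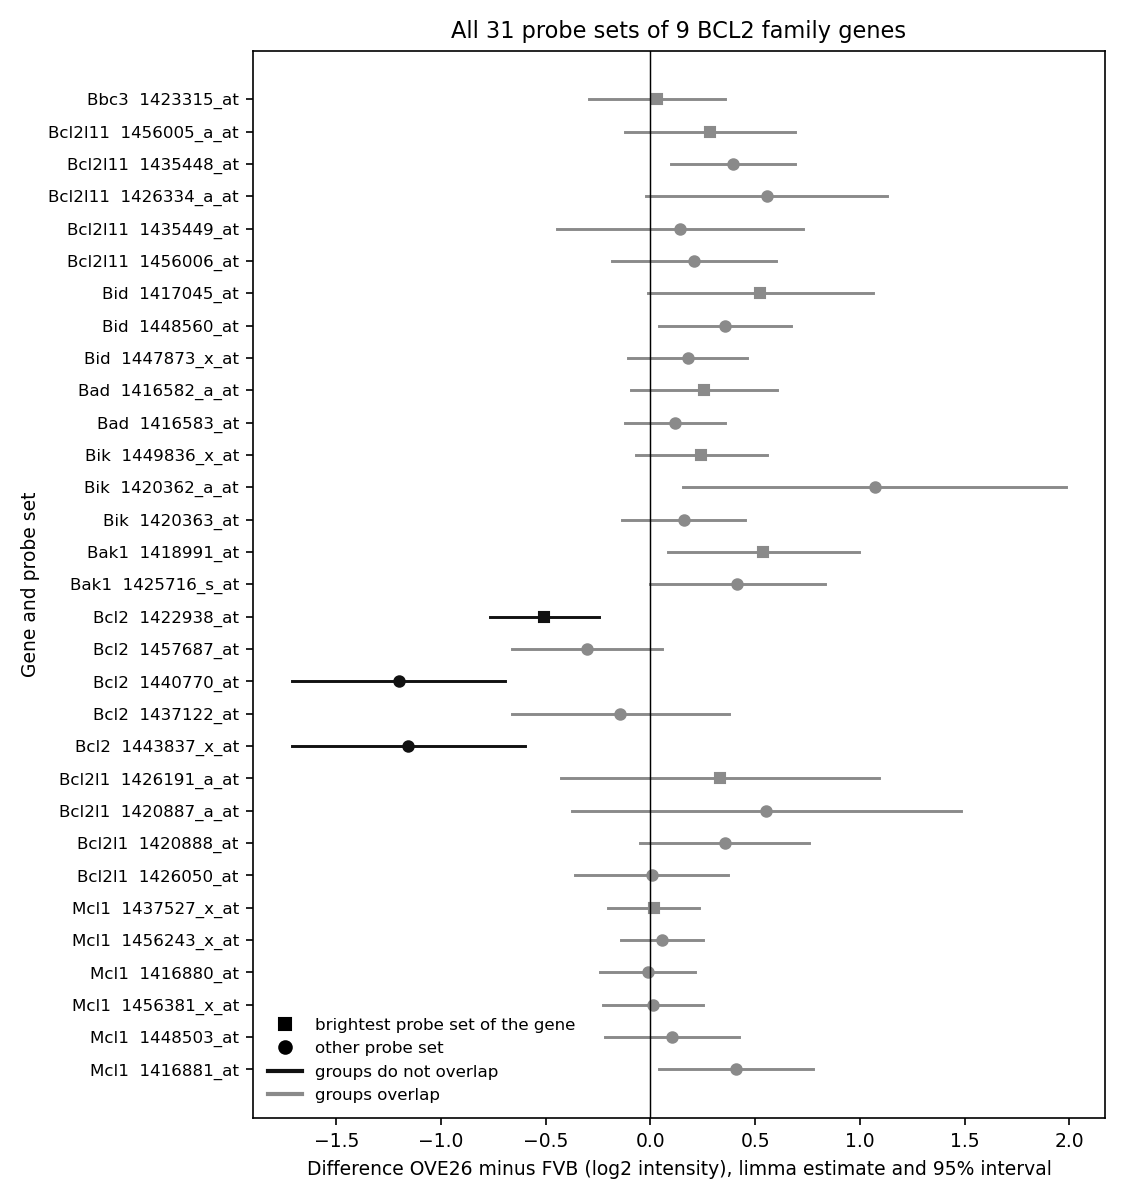
Difference OVE26 minus FVB in log2 intensity (horizontal axis) with the limma 95% interval for all 31 probe sets of the 9 measured members, squares for the brightest probe set of a gene and black for the 3 whose groups do not overlap. All 5 Bcl2 probe sets lie left of 0, from -1.20 to -0.14, and 25 of the 26 others lie right of it.

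Bcl2, the restrainer after which the family is named, was the member with the lowest values in diabetic podocytes relative to normal ones. Its brightest probe set (1422938_at) read 10.86, 10.89, 10.97, 10.57 and 11.00 in OVE26 and 11.45, 11.28, 11.44 and 11.29 in FVB. Every OVE26 array lay below every FVB array, with a gap of 0.29 between the highest OVE26 and the lowest FVB array. The means were 10.86 ± 0.17 (SD, n = 5) and 11.36 ± 0.09 (SD, n = 4). The difference was -0.51 (95% interval -0.77 to -0.25), or 70.4% of the FVB level (interval 58.8% to 84.3%), with an unadjusted p of 0.00146 and an adjusted p of 0.115 in the limma fit.

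On 2 other probe sets of Bcl2 the difference was larger and the groups again did not overlap. The probe set 1440770_at read 6.73, 6.19, 6.02, 5.66 and 6.43 in OVE26 and 7.09, 7.77, 7.60 and 7.18 in FVB. Its difference was -1.20 (95% interval -1.71 to -0.69), or 43.5% of the FVB level, with the smallest adjusted p of all member probe sets, 0.0760 in the limma fit. The probe set 1443837_x_at, whose suffix marks probes that may also bind other transcripts, read 5.52, 4.34, 5.14, 5.37 and 5.61 in OVE26 and 6.50, 6.49, 6.00 and 6.41 in FVB. It gave -1.16 (95% interval -1.71 to -0.60), or 44.9% of the FVB level (limma adjusted p = 0.101), with OVE26 2 well below the other diabetic arrays.

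The last 2 Bcl2 probe sets did not separate the groups. The probe set 1457687_at read 8.90, 8.86, 9.13, 8.64 and 9.23 in OVE26 and 9.31, 8.89, 9.46 and 9.36 in FVB, where FVB 2 lay among the diabetic arrays, and gave -0.30 (limma adjusted p = 0.448). The probe set 1437122_at gave -0.14 (95% interval -0.66 to 0.37, limma adjusted p = 0.845). The 5 probe sets of the gene therefore share a sign but differ in size, and the files do not say which transcripts of Bcl2 each of them reads.

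When the probe sets of each gene were averaged before the fit, Bcl2 was the only member past the threshold. Its mean over 5 probe sets was 7.68, 7.38, 7.42, 7.19 and 7.75 in OVE26 and 8.15, 8.06, 8.25 and 8.12 in FVB. The difference was -0.66 (95% interval -0.94 to -0.38), with a limma adjusted p of 0.0481 over 18193 genes, of which 0.792% passed. Leaving out 1 array at a time, this average passed in 2 of 9 fits (without OVE26 1 and without FVB 2), with adjusted p from 0.0443 to 0.162 in limma and differences from -0.73 to -0.59. The averages of Bcl2l11 and Bik had every OVE26 array above every FVB array, against 3.88% of all genes. That of Bcl2 had every OVE26 array below, against 2.77%. The separation was narrow for Bik, with 3.66 in the lowest OVE26 array and 3.64 in the highest FVB array. For Bcl2l11 these values were 5.25 and 5.21. Mean log2 intensity was above the dim level of 4.41 for 0 of 3 Bik and 3 of 5 Bcl2l11 probe sets. On the scale of the averages, Bcl2l11 gave 0.32 (limma adjusted p = 0.242) and Bik gave 0.49 (limma adjusted p = 0.228), and neither passed.

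Bcl2l1 (BCL-XL), a restrainer that holds back both Bax and Bak1, was set apart by a single diabetic array. Its brightest probe set (1426191_a_at) read 7.33, 7.31, 7.41, 8.81 and 7.31 in OVE26 and 6.87, 7.97, 7.15 and 7.23 in FVB. OVE26 4 stood 1.4 log2 units above the next diabetic array, and the other 4 lay within the FVB range. The difference was 0.33 (95% interval -0.43 to 1.09, limma adjusted p = 0.736) over all arrays and 0.04 without OVE26 4. It was 0.19 without FVB 1, 0.55 without FVB 2 and 0.99 among the low-Xist arrays, and its sign turned with the macrophage score (-0.19) and the podocyte score (-0.62). The probe set 1420887_a_at read 6.83, 7.30, 7.31, 8.92 and 6.63 in OVE26 and 7.03, 7.04, 7.02 and 6.30 in FVB, with the same array on top. OVE26 4 was the highest array on all 4 probe sets of the gene, of which 1426050_at was below the 25th percentile and listed at the same value in all 4 FVB arrays. The same array had the highest score of immediate early genes of all 9 (1.07, against 0.58 or less) and the lowest podocyte score (-0.43, against -0.30 or more), and their part in the Bcl2l1 values was not tested.

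**Figure D3:**
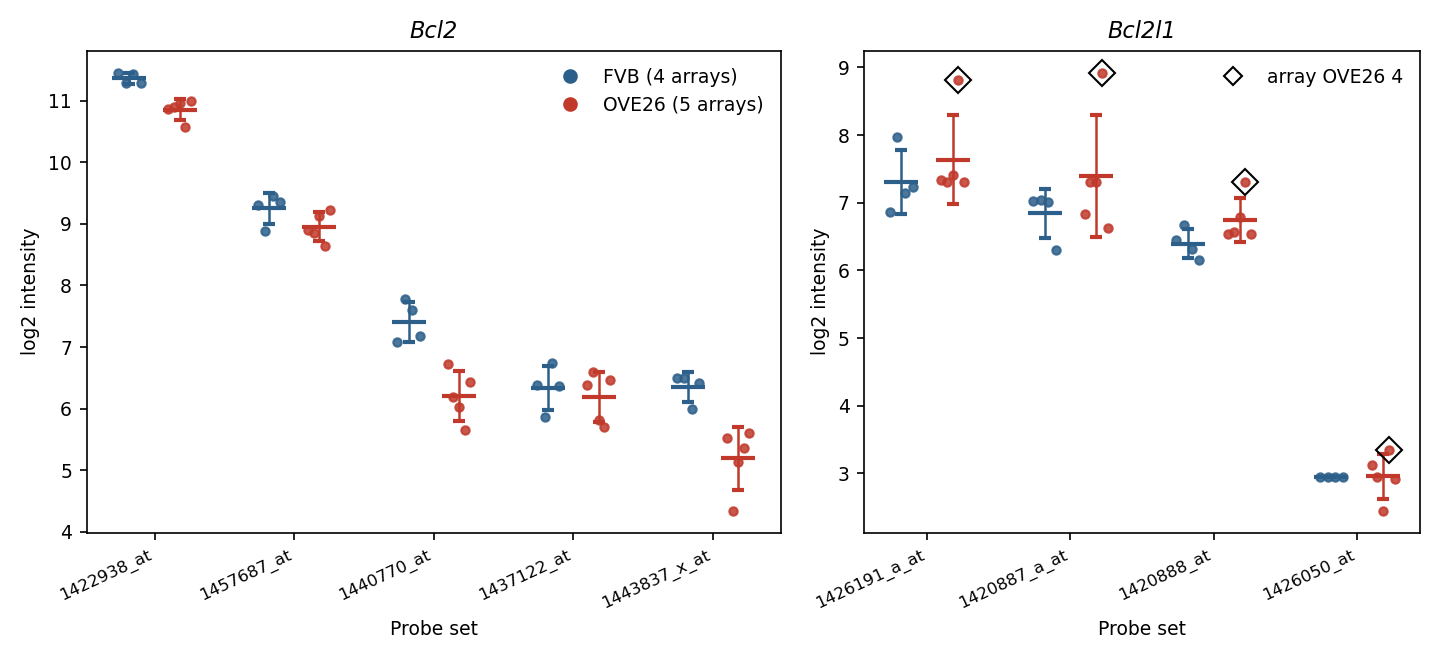
Log2 intensity of every probe set of Bcl2 (left) and Bcl2l1 (right) in each array, with group means and SD bars, blue for FVB (4 arrays) and red for OVE26 (5 arrays); levels of different probe sets are not comparable. The red and blue points separate on 3 Bcl2 probe sets, and the array OVE26 4 (diamonds) tops all 4 Bcl2l1 probe sets, at 8.81 on the brightest.

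Mcl1, a restrainer with a short-lived protein, had nearly equal group means on 5 of its 6 probe sets. The brightest (1437527_x_at) read 11.61, 11.71, 11.78, 11.86 and 11.60 in OVE26 and 11.70, 11.73, 11.63 and 11.71 in FVB. The difference was 0.02 (95% interval -0.20 to 0.23, limma adjusted p = 0.965). Its sign was negative, at -0.02, after quantile normalization. The probe sets 1456243_x_at, 1416880_at, 1456381_x_at and 1448503_at gave 0.05, -0.01, 0.01 and 0.10. The probe set 1416881_at read 9.50, 9.31, 9.93, 10.08 and 9.63 in OVE26 and 9.22, 9.47, 9.22 and 9.21 in FVB, where the groups overlapped only through OVE26 2 and FVB 2. It gave 0.41 (95% interval 0.04 to 0.78, unadjusted p = 0.0324, adjusted p = 0.311 in the limma fit). Its sign turned with the macrophage score (-0.078) and the podocyte score (-0.072).

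The ratio of a death-promoting gene to a restrainer was described within each array, without a test. Bak1 over Mcl1 was 0.52 higher in OVE26 on the log2 scale, and Bcl2l11 over Mcl1 was 0.27 higher, with overlapping arrays for both. Bak1 over Mcl1 was 0.15 higher among the low-Xist arrays, and Bcl2l11 over Mcl1 was 0.15 higher without FVB 1. The ratios to Bax were not run.

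The SD was larger over the 5 diabetic arrays than over the 4 FVB arrays for 7 of the 9 brightest member probe sets and for 25 of all 31, and for 66.2% of all 45037 probe sets. OVE26 4 was the highest or lowest of the 5 diabetic arrays for 7 of the 9 brightest member probe sets and for 25 of all 31, while each other OVE26 array was so for 5 to 12 of the 31. Over all 45037 probe sets OVE26 4 was the highest or lowest for 44.2% and the others for 29.2% to 50.6%, and the members were not tested against this. It was the highest for Bbc3, Bcl2l11, Bcl2l1 and Mcl1, and the lowest for Bad, Bak1 and Bcl2. Without this array the Bcl2 probe set 1422938_at gave -0.43, and 1440770_at gave -1.06.

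Markers of other cells and of the podocyte itself moved with the groups beside these values. The sorts had strong signal for the podocyte markers in both groups (13 of 16 listed genes measured, 0 below the 25th percentile). All 13 had a negative difference and 0 passed the test, with a median of -0.35. For 5, every OVE26 array lay below every FVB array, against 2.78% of all probe sets. Their mean log2 level was 10.56 to 11.08 in OVE26 arrays and 11.08 to 11.32 in FVB arrays. Distal nephron markers, from the loop of Henle to the collecting duct (18 of 18 measured), had mean levels of 7.31 to 8.73 in OVE26 and 5.68 to 6.94 in FVB and a median difference of 1.37. Of these, 2 passed and rose: Fxyd4, a regulator of the sodium pump in the collecting duct (2.40, limma adjusted p = 0.0176), and Atp6v0d2, a subunit of the vacuolar proton pump in acid-secreting cells (2.88, limma adjusted p = 0.0429). All 18 distal markers had a positive difference. For 8, every OVE26 array lay above every FVB array, against 2.67% of all probe sets. Macrophage markers (16 of 16 measured, 3 below the 25th percentile) ran from 4.95 to 5.98 in OVE26 and from 4.72 to 4.98 in FVB, with a median difference of 0.52 and 0 passing. Among them 13 had a positive and 3 a negative difference (Mrc1 gave -1.35). For 7, every OVE26 array lay above every FVB array, against 2.67% of all probe sets. In each gene list the brightest probe set of a gene was counted, and the share over such probe sets alone was not computed.

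With the podocyte score as a covariate, the 3 Bcl2 probe sets 1422938_at, 1440770_at and 1443837_x_at gave -0.33, -0.65 and -1.34. With the distal score they gave -0.47, -1.19 and -0.60, and with the macrophage score -0.43, -1.04 and -1.85. The sign was negative in each of these fits, and 0 member probe sets passed in any. The podocyte score was at most 0.089 in OVE26 and at least 0.091 in FVB. The distal score was at least 0.23 in OVE26 and at most -0.14 in FVB. The macrophage score overlapped only through OVE26 2. With scores that separate the groups, these fits cannot tell the cells in the sort apart from the diabetic group. Markers of proximal tubule (12 of 12 measured, median 0.12), glomerular endothelium (10 of 10, -0.26), mesangium (8 of 9, -0.20) and T and B cells (6 of 8, 0.07) had 0 genes past the threshold. The part of the other cells in the Bcl2 values was not tested.

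The sex of the mice is not in the labels. Xist, which is transcribed from the inactive X chromosome, was above the mean of the Y-linked genes in 3 of the 5 OVE26 arrays and in 1 of the 4 FVB arrays. With this as a covariate the same 3 Bcl2 probe sets gave -0.54, -1.27 and -1.10. Among the low-Xist arrays they gave -0.68, -1.09 and -0.86, with 0 members past the threshold in either fit.

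**Figure D4:**
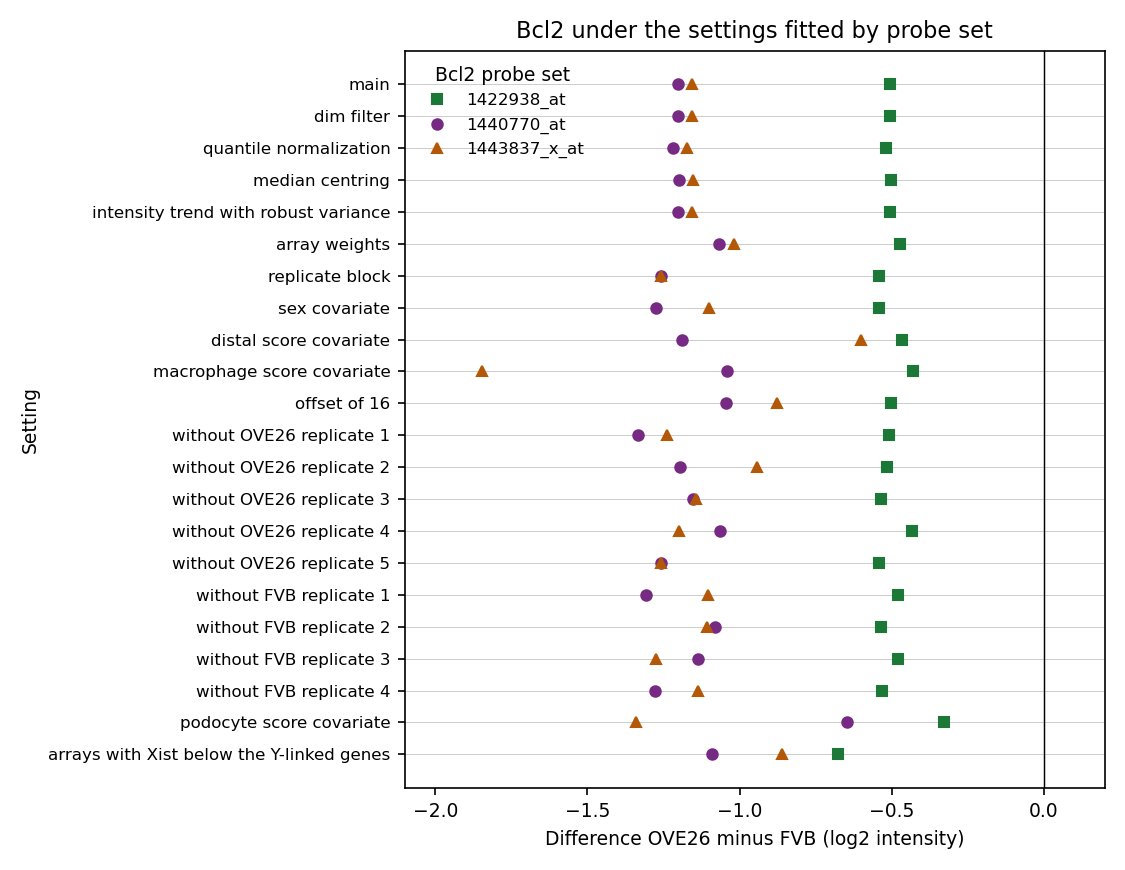
Difference OVE26 minus FVB in log2 intensity (horizontal axis) of the 3 Bcl2 probe sets whose groups do not overlap, 1 row per processing setting, covariate or left-out array. All points lie left of 0, with 1422938_at between -0.68 and -0.33 and the widest spread for 1443837_x_at, from -1.85 to -0.60. Since the groups do not overlap, leaving out arrays, array weights, the replicate block and the offset cannot move a point past 0. The dim filter and the other variance model repeat the main value.

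Other genes of the pathway showed no common direction. Of 15 further BCL2 family genes 11 were measured, 0 passed, 7 had a positive and 4 a negative difference, and the median was 0.03. The smallest p belonged to Pmaip1 (NOXA), a BH3-only partner of Mcl1, with a difference of 1.19 (limma adjusted p = 0.269). Its means were 4.87 in OVE26 and 3.68 in FVB, around the 40th percentile (4.41), and the groups overlapped through FVB 4 (4.86). Bnip3, a mitochondrial protein induced by low oxygen, gave 0.53 (limma adjusted p = 0.277) and Bok, a relative of the effectors, gave 0.54 (limma adjusted p = 0.305). The restrainer Bcl2l2 (BCL-W) gave -0.36 (limma adjusted p = 0.280), the same sign as Bcl2.

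Of 24 genes of mitochondrial release and the apoptosome, which turns released cytochrome c into caspase activity, 21 were measured and 0 passed, with a median of 0.02 (11 positive, 10 negative). Birc5 (survivin), a protein of dividing cells, gave 0.92 (limma adjusted p = 0.160), and Endog, a mitochondrial nuclease, gave 0.85 (limma adjusted p = 0.173). Birc2, an inhibitor of apoptosis, gave -0.29 (limma adjusted p = 0.352), and Cycs, cytochrome c itself, gave 0.22 (limma adjusted p = 0.395).

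Of 28 inducers and regulators of the family 26 were measured and 0 passed, with 13 positive and 13 negative differences and a median of -0.01. Ddit3 (CHOP), the stress factor that can induce Bcl2l11 and lower Bcl2, gave -0.42 (limma adjusted p = 0.229). The cell cycle factor E2f1 gave -0.57 (limma adjusted p = 0.310), the Mcl1 deubiquitinase Usp9x gave -0.28 (limma adjusted p = 0.319) and the Bcl2 partner Bag1 gave 0.22 (limma adjusted p = 0.361). Foxo1 and Foxo3, whose motif stands in the Bcl2l11 and Bbc3 stretches shown above and which were singled out after their values were seen, gave 0.03 and -0.03.

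The 22 immediate early genes, which are known to respond quickly to the handling of cells as well as to signals, were all measured, and 0 passed. Their median was 0.60, with 19 positive and 3 negative differences. Egr2 gave 3.16 (limma adjusted p = 0.0790), Myc gave 1.63 (limma adjusted p = 0.148) and Gadd45g gave 1.32 (limma adjusted p = 0.154), each with every OVE26 array above every FVB array. With Klf2 this held for 4 of the 22, against 2.67% of all probe sets. Ier2 gave 1.01 (limma adjusted p = 0.172). Their part in the member values was not tested.

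**Figure D5:**
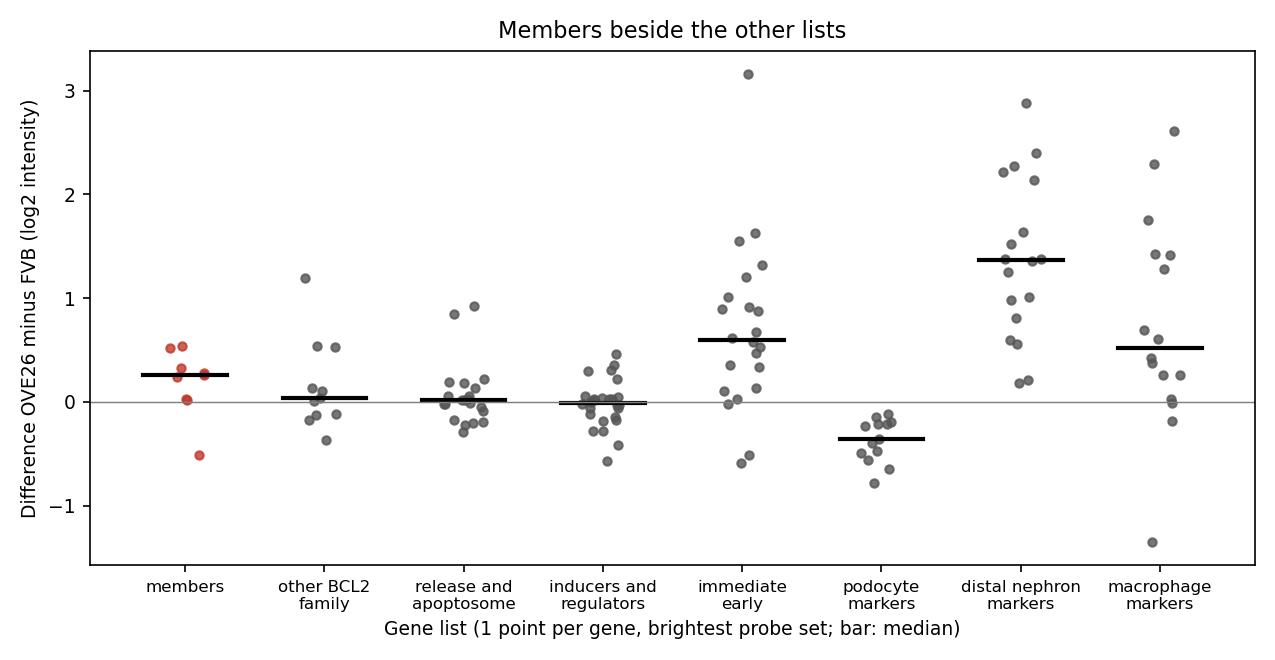
Difference OVE26 minus FVB in log2 intensity (vertical axis) for the brightest probe set of each gene, 1 point per gene, by gene list, with a bar at the list's median. The members have a median of 0.26 with Bcl2 alone below 0, all 13 podocyte markers lie below 0, and the distal nephron markers have a median of 1.37.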

How the data were processed

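The authors deposited probe set intensities on a linear scale, which their processing notes (per the submitters) tie to RMA, a method that corrects background, normalizes between arrays and summarizes probes, and to Partek. Versions and settings are not named in the labels or the file. RMA makes arrays alike in distribution, so a shift shared by most genes would not show. Of the 45101 probe sets, 64 controls were left out. The median log2 intensity was 5.07 to 5.13 in OVE26 arrays and 5.08 to 5.15 in FVB arrays. Correlation between arrays was 0.960 to 0.985 within OVE26 and 0.980 to 0.989 within FVB, and the number of arrays limits the precision.

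Log2 of the intensities of 45037 probe sets was compared between 5 OVE26 and 4 FVB arrays by a linear model with group as the term and moderated variances (limma 3.58.1, R 4.3.3, 2-sided), with Benjamini-Hochberg adjustment over all of them and a threshold of 0.05. The script was tested on simulated data. The p-values set the group difference against the spread between these arrays, which holds mice, sorts and amplifications together. Symbols came from the platform annotation (1 symbol for 34945 probe sets, several for 932, 9160 not listed), and all 9 measured members carried the same symbol in the RefSeq table of GRCm38.p6.

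The members and lists were chosen with earlier results of these data known. All members were named, with every array's value for the brightest probe set and for any other with unadjusted p under 0.05 or groups that did not overlap. Of each pathway list, all genes that passed were named, otherwise up to 4 with the smallest p. The labels do not say whether mice with the same replicate number were paired, and the main fit did not pair them. Deviations of same-numbered arrays correlated at 0.11, 0.023, -0.18 and -0.0075. These values show no strong shared effect but cannot settle whether the mice were paired. Alternatives were a filter on dim probe sets, 1 value per gene, other normalizations, array weights, an offset of 16 before the log, covariates, and leaving out each array.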

Additional observations from a re-analysis of the deposited data

Results flagged for a closer look

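Among 61 groups of member probe set values, 7 held an array far from the others of its group by Dixon's criterion, which chance meets in about 1 of 20 groups. In 2 cases the array was OVE26 4. For Bcl2l1 (1426191_a_at) it read 8.81, against 7.31 to 7.41 in the 4 other diabetic arrays. For Mcl1 (1456243_x_at) it read 11.29, against 11.15 to 11.18.

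For Bad (1416583_at) OVE26 5 read 7.90, against 7.72 to 7.77 in the other diabetic arrays. Among the FVB arrays, FVB 2 read 5.60 for Bbc3 (1423315_at), against 5.72 to 5.73, and 9.47 for Mcl1 (1416881_at), against 9.21 to 9.22. FVB 1 read 3.56 for Bcl2l11 (1426334_a_at), against 4.24 to 4.37, and FVB 4 read 6.30 for Bcl2l1 (1420887_a_at), against 7.02 to 7.04.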

How the results depend on the processing

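The count of member probe sets past the threshold was 0 in limma under all settings but 2: it was 1 with the probe sets of each gene averaged (Bcl2, adjusted p = 0.0481) and 1 at an adjusted p under 0.1 (Bcl2 1440770_at). The difference of Bcl2 1422938_at stayed negative in 23 of 23 settings, and those of 1440770_at and 1443837_x_at in 21 of 21 each. The groups of these 3 did not overlap, so leaving out arrays, as in the low-Xist fit, could not turn their sign. The other 2 Bcl2 probe sets, whose groups overlapped, were not followed through the settings. Leaving out 1 array at a time, 1422938_at gave -0.54 to -0.43 (limma adjusted p = 0.116 to 0.310) and 1440770_at gave -1.33 to -1.06 (limma adjusted p = 0.0594 to 0.186). Over all probe sets the limma count moved more. From 122 it went to 340 with array weights, 40 with the sex covariate, 10 with the macrophage score, 400 at an adjusted p under 0.1 and 0 at one under 0.01. It was 0 with the distal score (3736 at unadjusted p under 0.05), with the podocyte score (4092) and among the arrays with low Xist (5445; these 2 chosen after seeing the data, as were the averages per gene with an array left out), and with the replicate block, where 5353 had an unadjusted p under 0.05. Under the replicate block the 3 Bcl2 probe sets gave -0.54, -1.26 and -1.26. Leaving out 1 array gave counts from 0 (without OVE26 3, FVB 3 or FVB 4, with 5674, 4973 and 5021 at unadjusted p under 0.05) to 424 (without FVB 2), with 1 without FVB 1, 37 without OVE26 5, 48 without OVE26 4 and 70 without OVE26 1. Of the calls, 72.1% were higher in OVE26, against 2 of the 10 with the macrophage score. Member probe sets whose groups did not overlap numbered 3 to 7 with an array left out (5 without OVE26 1, OVE26 4 or FVB 1, 7 without FVB 2 or FVB 4) and 10 among the arrays with low Xist, where fewer arrays are compared. The share of all probe sets without overlap was not computed for these settings, so these counts cannot be read as a trait of the members.

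Of the 31 member probe sets, 15 were followed through the settings. These were the brightest of each gene and any other with unadjusted p under 0.05 in the limma fit or groups that did not overlap. The differences of 6 of the 15 changed sign under some settings, and the remaining member probe sets were not followed. Bbc3 gave -0.027 with array weights, -0.030 with the distal score, -0.28 with the podocyte score, -0.037 among the arrays with low Xist and -0.054 to 0.14 with an array left out. Bcl2l1 1426191_a_at gave -0.19 with the macrophage score and -0.62 with the podocyte score. Bcl2l11 1456005_a_at gave -0.018 and -0.059 with these scores, Mcl1 1416881_at gave -0.078 and -0.072, and Bid 1417045_at gave -0.044 with the macrophage score. Mcl1 1437527_x_at gave -0.025 after quantile normalization, -0.0084 with array weights, -0.042 with the distal, -0.057 with the macrophage and -0.15 with the podocyte score, and -0.020 to 0.043 with an array left out. The cause was not tested.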
